A study of Mus musculus with 6 samples.

Results

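The transcripts described here came from stretches of the mouse genome to which the assembly of the RNA-seq reads gave only a running number (MSTRG) and no gene name. They were chosen by level, from 59699 assembled loci in all, of which 6596 named no gene: a locus was kept when its CPM (its count per 1000000 counts of the library) reached 1 in at least 3 of the 6 libraries. That left 2411 unnamed loci, beside 14064 named loci that met the same rule. The RNA was from neural progenitor cells (NPCs) of the ganglionic eminences of mouse fetuses at E13.5 (embryonic day), which were grown as neurospheres in medium with 20 ng/ml epidermal growth factor, dissociated once, and used at the second passage. There were 3 *Armc5* KO libraries, from fetuses without a functional *Armc5* gene, and 3 WT libraries, here named KO NPC 1 to 3 and WT NPC 1 to 3. The labels give the strain of both groups as 129 sv X CD1, while the methods of the study describe a CD1 x C57BL/6 F1 background, and *Armc5* was missing in all cells of the KO fetuses rather than in a chosen cell type. The total count was between 55722527 (KO NPC 3) and 86554006 (KO NPC 1), and *Armc5* was at 0.970, 1.58 and 0.772 CPM in KO NPC 1, 2 and 3 and between 26.02 and 29.3 CPM in the WT NPCs. No unnamed locus that met the rule lay within 10 kb of *Armc5*.

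ARMC5 is the substrate-recognising part of a CUL3 ubiquitin ligase that acts on POLR2A, the large subunit of RNA polymerase II (Pol II), which makes mRNAs and most long noncoding RNAs. Pol II also makes RNA outside annotated exons: introns of pre-mRNAs, stretches past the 3′ end of a gene before transcription terminates, antisense RNAs, and RNAs that start at a promoter and run away from the gene. Libraries made by depletion of rRNA, as here, hold such RNA beside mature mRNA, and an assembler turns it into loci without a name.

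Since the rule used the level, the levels below are a description of what it chose. Of the 2411 loci, 1688 reached 1 CPM in all 6 libraries, 15 did so only in the 3 KO libraries and 2 only in the 3 WT libraries, and the other 4185 unnamed loci fell below the rule, 133 of them with a count of 0 in every library. The members nearest to the rule were MSTRG.5893, MSTRG.35077 and MSTRG.17697, each with a third-highest value of 1.005 CPM, and the nearest below it were MSTRG.30698, MSTRG.16352 and MSTRG.28045, each with 0.999 CPM. In RefSeq (GRCm38.p6), which names genes that the deposited table does not, 79 of the 2411 loci (3.28%) had the larger part of their span inside such a gene on the same strand, 66 of them in a long noncoding RNA and 13 in a protein-coding gene. These 79 included MSTRG.33096 (in *Gm3134*), MSTRG.17147 and MSTRG.17148 (both in *Gm41810*) and MSTRG.14900 (in *D17H6S56E-5*).

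The unnamed loci fell into 7 classes by their position relative to the named loci of the table (build GRCm38). An overlap with a named locus on the same strand was seen for 1182 loci (49.0%), and 1067 of these lay wholly inside 1 named locus. An overlap on the opposite strand only was seen for 513 loci (21.3%). A further 412 loci (17.1%) lay within 5 kb past the 3′ end of a named locus on its strand, 59 (2.45%) within 5 kb of a named locus in divergent orientation, and 70 (2.90%) within 5 kb in another orientation. The last 2 classes were 153 loci (6.35%) over 5 kb from any named locus and 22 on unplaced scaffolds. They were on the plus strand in 1203 cases and on the minus strand in 1208.

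Most unnamed loci were single, unspliced blocks. Of the 2411, 1617 (67.1%) had 1 exon, compared with 13% of the named loci that met the rule and 77.4% of the 1454 loci there that named a single predicted *Gm* gene. The median exon length was 2234 bases (range 201 to 56915). The shortest spans were those of MSTRG.6256 (201 bases, in the *Taco1* locus), MSTRG.1233 (204 bases) and MSTRG.36201 (209 bases), and the longest those of MSTRG.6849 (1683611 bases), MSTRG.9293 (1205834 bases) and MSTRG.22826 (850097 bases), whose exons made up at most 0.670% of the span. The median level was 3.62 CPM, and per kb of exon 1.61 CPM, compared with 5.18 CPM per kb for the named loci. A mean of 100 CPM or more was reached by 14 of them.

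Promoter windows that hold the assembled 5′ end of some of these loci are shown first. Such a locus, where it points away from the gene, can be set beside a named gene by position. An assembled 5′ end was not shown to be a start of transcription. RefSeq promoter windows of 300 bases (250 before the start of a gene to 50 after it) were searched for the 5′ ends of the 2411 loci. For 57 loci the assembled 5′ end lay inside such a window, for 37 of them on the opposite strand. The opposite-strand windows numbered 40, with a median of 29.5 CG dinucleotides, and 39 of them (97.5%) held at least 10 CG. This was so for 14 of the 23 same-strand windows (60.9%) and for 43.5% of all 32851 windows. The 32851 windows were taken whatever the level of their gene. Windows of expressed genes alone were not compared, so the contrast is not shown to be particular to these loci. Below are the windows of 3 opposite-strand loci, those with the highest mean CPM among the loci ranked. The ranking did not cover every chromosome. Each window is written 5′ to 3′ along the strand of its gene, with the bases that the unnamed locus also covers in capitals.
*Sall1* promoter, chr8:89042813-89043112, minus strand: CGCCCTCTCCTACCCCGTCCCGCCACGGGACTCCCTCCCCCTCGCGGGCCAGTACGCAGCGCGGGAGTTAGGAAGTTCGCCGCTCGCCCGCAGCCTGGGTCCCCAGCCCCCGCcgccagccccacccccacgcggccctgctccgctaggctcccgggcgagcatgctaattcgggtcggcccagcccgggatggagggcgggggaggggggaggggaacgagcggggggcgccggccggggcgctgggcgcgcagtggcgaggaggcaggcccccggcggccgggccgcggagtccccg
*Trim39* promoter, chr17:36271382-36271681, minus strand: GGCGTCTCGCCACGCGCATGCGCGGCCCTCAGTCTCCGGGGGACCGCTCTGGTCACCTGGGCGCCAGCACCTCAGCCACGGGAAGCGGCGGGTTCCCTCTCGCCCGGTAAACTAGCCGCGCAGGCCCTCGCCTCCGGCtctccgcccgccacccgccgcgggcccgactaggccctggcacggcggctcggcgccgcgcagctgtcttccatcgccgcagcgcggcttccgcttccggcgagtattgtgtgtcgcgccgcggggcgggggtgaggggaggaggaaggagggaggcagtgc
*Selenoi* promoter, chr5:30232331-30232630, plus strand: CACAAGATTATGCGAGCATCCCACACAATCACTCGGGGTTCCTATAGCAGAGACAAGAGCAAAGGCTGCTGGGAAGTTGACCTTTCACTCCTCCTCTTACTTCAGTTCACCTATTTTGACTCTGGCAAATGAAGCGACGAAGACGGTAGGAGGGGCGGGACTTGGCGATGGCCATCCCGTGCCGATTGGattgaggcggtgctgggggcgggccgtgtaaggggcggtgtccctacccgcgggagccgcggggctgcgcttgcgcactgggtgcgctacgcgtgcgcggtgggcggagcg
In all 3 windows, the capitals stand at the 5′ side, where the unnamed locus runs away from the RefSeq start of the gene. By the position classes above, MSTRG.25096 was divergent from the *Selenoi* locus. MSTRG.33096 and MSTRG.15017 overlapped the assembled *Sall1* and *Trim39* loci on the opposite strand and were classed as antisense.

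*Sall1*, which encodes a zinc finger transcription factor, was between 161 and 226 CPM in the 6 libraries. The locus with its assembled 5′ end in the *Sall1* window was MSTRG.33096 (chr8:89043000-89059165, plus strand, 16166 bases). It lies within the RefSeq gene *Gm3134* of the same strand. *Gm3134* starts at chr8:89041243, on the *Sall1* side of the window, so a start of MSTRG.33096 at the promoter was not shown. MSTRG.33096 was at 21.5, 17.5 and 58.4 CPM in KO NPC 1, 2 and 3 and at 17.4, 21.4 and 20.6 CPM in WT NPC 1, 2 and 3. It was thus high in KO NPC 3 and alike in the other 5 libraries. The other 2 loci were more even over the libraries. MSTRG.15017 (chr17:36271544-36283286, plus strand), at the promoter of the ubiquitin ligase gene *Trim39*, was between 20.1 and 32.1 CPM, and *Trim39* between 19.6 and 30.4 CPM. MSTRG.25096 (chr5:30223105-30232519, minus strand), which starts 62 bases from the *Selenoi* locus, was at 25.6, 25.4 and 30.5 CPM in the KO NPCs and at 23.2, 21.7 and 18.3 CPM in the WT NPCs. The KO values of MSTRG.25096 all lay above its WT values by a small margin, while *Selenoi* was at 56.8, 60.8 and 45.8 CPM in the KO NPCs and at 77.6, 86.6 and 54.1 CPM in the WT NPCs, where the groups overlapped. These 3 loci and their windows were picked after their values were seen.

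A microRNA hairpin was overlapped by 8 unnamed loci, on the same strand by 5 of them. MSTRG.18236 (chr2:29843806-29846300, minus strand) held the hairpin of *Mir219a-2*, whose mature product is a microRNA of the oligodendrocyte lineage. Its sequence is shown with the seed, bases 2 to 8, in capitals (RefSeq, GRCm38.p6, written as RNA).
mmu-miR-219a-5p: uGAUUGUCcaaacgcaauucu
MSTRG.18236, named after its values were seen, was at 0.485, 3.73 and 27.7 CPM in KO NPC 1, 2 and 3 and at 0.536, 2.97 and 3.39 CPM in WT NPC 1, 2 and 3. Both libraries numbered 1 were low, KO NPC 3 was high, and the groups overlapped. *Mbp*, which encodes a myelin protein of oligodendrocytes, was likewise lowest in the libraries numbered 1 and highest in KO NPC 3, at 8.06, 50.3 and 548 CPM in KO NPC 1, 2 and 3 and at 10.4, 43.1 and 83.8 CPM in WT NPC 1, 2 and 3. The part of such cells in the level of MSTRG.18236 was not tested, and in bulk RNA fewer cells of a type and less RNA per cell cannot be told apart.

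The unnamed loci on the strand of a named locus lay mostly in introns. Of the 1182, 960 (81.2%) lay in a gene of GENCODE vM21 and touched no annotated exon on that strand, among them 503 of the 538 with 1 exon. The counts of the class were unevenly spread over libraries. The 1182 loci of this class took up 3.46% of all counts in KO NPC 3, and 0.743% (KO NPC 1), 0.580% (KO NPC 2), 0.806% (WT NPC 1), 0.638% (WT NPC 2) and 0.665% (WT NPC 3) in the others. KO NPC 3 was the highest library for 966 of them (81.7%), for 1563 of all 2411 unnamed loci (64.8%), and for 37.2% of the named loci that met the rule.

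**Figure D1:**
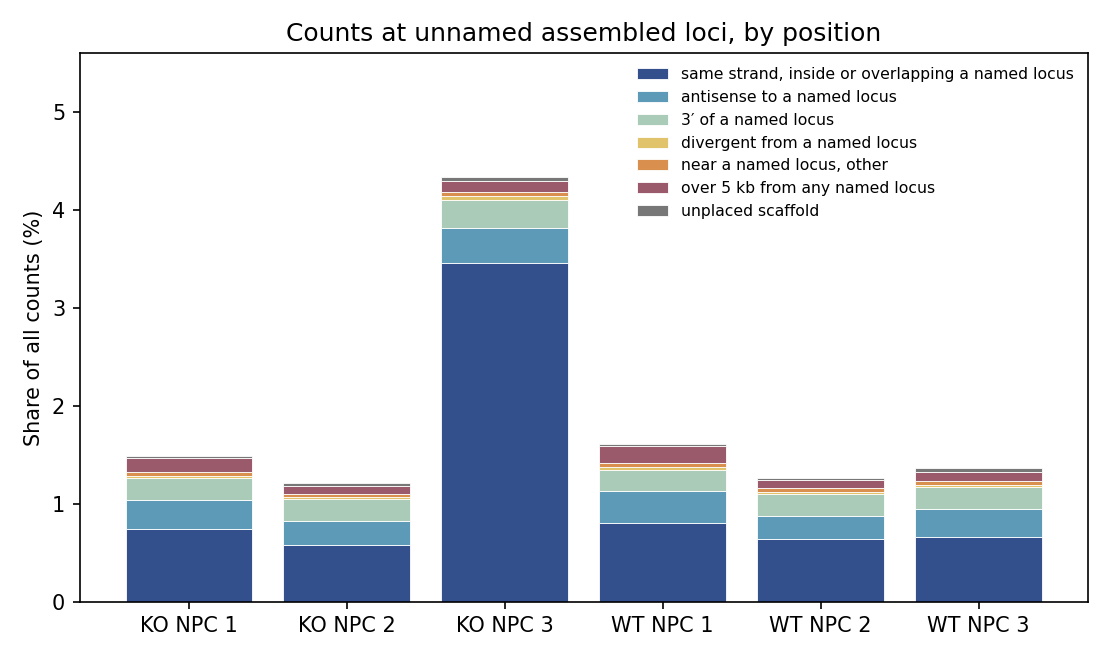
Share of each library's total count (y axis, %) that lay at the 2411 unnamed loci, stacked by position class, for the 3 KO and 3 WT libraries. KO NPC 3 stands at 4.34% and the other 5 libraries between 1.21% and 1.61%, and the difference is in the loci on the strand of a named locus, at 3.46% in KO NPC 3.

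The named loci that hold many of them were long genes. The 1182 loci lay on 761 named loci, of which 27 held 5 or more. These 27 had a median span of 631 kb (range 91.0 to 2197 kb), compared with 91.1 kb over all 761. *Lsamp*, a cell adhesion protein of the limbic system, held 26 unnamed loci, *Grip1*, a scaffold of glutamate receptors, 18, *Erbb4*, a neuregulin receptor, 16, *Csmd1*, a membrane protein with complement-like domains, 15, *Pcdh9*, a protocadherin, 11, and *Nrxn3*, a presynaptic neurexin, 10.

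In KO NPC 3 the 26 loci in *Lsamp* summed to 2049 CPM, compared with 125 to 156 CPM in the other 5 libraries, while the *Lsamp* locus itself was at 179 and 52.6 to 143 CPM. The 18 loci in *Grip1* summed to 457 CPM in KO NPC 3 and to 62.9 to 101 CPM in the others, where *Grip1* itself was lowest in KO NPC 3 (21.4, compared with 31.3 to 40.2 CPM). The 15 loci in *Csmd1* summed to 1788 CPM in KO NPC 3 and to 24.9 to 38.0 CPM in the others, and the *Csmd1* locus rose with them, from 10.3 to 20.1 CPM in 5 libraries to 370 CPM. The unnamed loci were therefore high in KO NPC 3 whether the named locus was higher, as for *Csmd1*, or lower, as for *Grip1*. Over the 681 named loci that were at 1 CPM or more in every library, the summed unnamed loci stood at a median of 0.205 of the named locus in KO NPC 3 and of 0.0792 to 0.0914 in the other 5 libraries, and the ratio was highest in KO NPC 3 for 506 of them. Of the 27 loci with 5 or more, the ratio was highest in KO NPC 3 for 27 and the summed level for 26. *Celrr*, a long noncoding RNA, was the exception in level, at 9.996 CPM in KO NPC 3 and 16.1 to 36.5 CPM in the others.

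**Figure D2:**
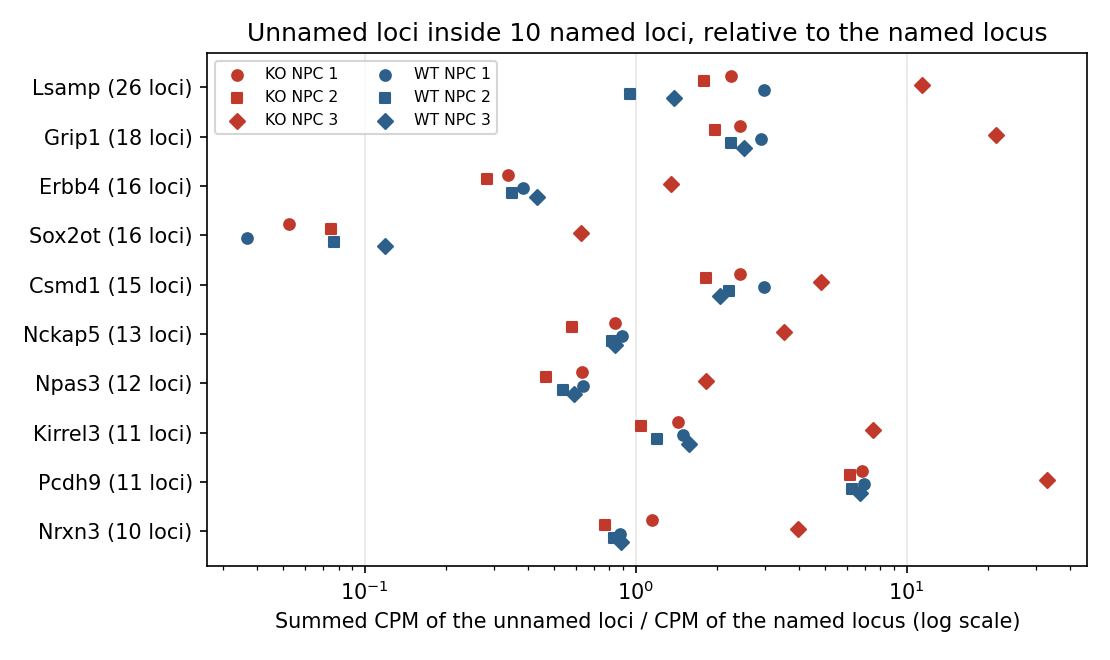
Summed CPM of the unnamed loci on the strand of a named locus, divided by the CPM of the named locus (x axis, log scale), for the 10 named loci that hold most of them, with 1 point for each library. In each of the 10 rows KO NPC 3 lies to the right of the other 5 libraries, as for *Pcdh9* at 33.1 against 6.20 to 6.99.

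The largest ratios of the highest to the median library were all in *Csmd1* introns and all from KO NPC 3. MSTRG.32078 (chr8:16946666-16967955, minus strand) was at 1.87, 2.18 and 181 CPM in KO NPC 1, 2 and 3 and at 2.08, 2.95 and 2.77 CPM in the WT NPCs, 73.4 times its median library. MSTRG.32075, MSTRG.32079 and MSTRG.32080 had ratios of 70.3, 62.3 and 61.7. KO NPC 3 exceeded every other library more than 2 times at 891 of the 2411 loci (37.0%) and more than 10 times at 162, of which 155 were on the strand of a named locus.

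The cells of KO NPC 3 also differed in the genes that mark cell types. The summed CPM of 10 progenitor genes was 4020 in KO NPC 3 and between 5782 and 6287 in the other libraries, with *Nes*, which encodes the intermediate filament NESTIN, at 80.3 CPM compared with 342 to 468 CPM. Of the 10, 7 were lower in KO NPC 3 than in every other library. The other 2 that stood apart were higher, the locus with *Sox2* (859, compared with 515 to 602 CPM) and *Dlx2* (74.3, compared with 0.208 to 30.7 CPM). The value for *Sox2*, also in the sum, is that of a merged locus that includes *Sox2ot*, so RNA of the 2 genes could not be told apart. The sum of 4 astrocyte genes was 1559 CPM, compared with 177 to 399 CPM, and that of 6 neuronal genes 1426 CPM, compared with 766 to 1383 CPM. Not every gene in these sums was highest in KO NPC 3. *Aldh1l1* (astrocyte) was at 142 CPM there and at 99.2 to 215 CPM in the others, and *Map2* (neuron) at 960 CPM there and at 1343 CPM in WT NPC 1. WT NPC 3 was raised too at *Gfap* (astrocyte), with 292 CPM in KO NPC 3, 47.5 CPM in WT NPC 3 and at most 1.49 CPM elsewhere. At *Dcx* (neuron) these values were 303, 230 and at most 61.9 CPM. Markers of microglia (4 genes, at most 0.826 CPM in sum, with *Aif1* at or near 0) were nearly absent everywhere. So were those of blood (2 genes, at most 0.226 CPM, with *Hbb-bs* at or near 0) and of fibroblasts (4 genes, at most 5.94 CPM). The sum of 3 endothelial genes was 16.3 CPM in KO NPC 3 and at most 4.58 CPM in the others. Among these 3, *Kdr* was at 15.7 CPM in KO NPC 3 and at 2.17 to 4.09 CPM in the others. *Cdh5* was at 0 CPM in KO NPC 3, and *Pecam1* was at 0.592 CPM there and at 0.594 CPM in WT NPC 3. The part of these differences in the levels of the unnamed loci was not tested.

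Progenitor genes had unnamed loci near them too. Of 27 listed progenitor genes, 5 were in the nearest named locus of at least 1 unnamed locus, 23 loci in all, and 21 of the 23 were highest in KO NPC 3. The *Sox2ot* locus, which includes *Sox2*, a transcription factor of neural stem cells, held 16 of them on its strand. Their median was 1.31, 2.03 and 29.4 CPM in KO NPC 1, 2 and 3 and 0.968, 1.66 and 3.60 CPM in WT NPC 1, 2 and 3, and each of the 16 was highest in KO NPC 3. The locus itself was at 859 CPM in KO NPC 3 and at 515 to 602 CPM in the others. The 3 loci in *Nfia*, a transcription factor of gliogenesis, behaved alike: MSTRG.23370 was at 380 CPM in KO NPC 3 and at 29.9 to 62.9 CPM in the others, MSTRG.23371 at 290 and 22.9 to 45.8 CPM, and MSTRG.23372 at 216 and 11.8 to 26.1 CPM.

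Differences were smaller at *Slc1a3* and *Pax6*, and at *Olig2* KO NPC 3 was not the highest library. MSTRG.11744, in the locus of the glutamate transporter gene *Slc1a3*, was at 9.35 CPM in KO NPC 3 and at 3.08 to 4.44 CPM in the others. MSTRG.19134, antisense to *Pax6*, a transcription factor of the forebrain, was at 7.11 CPM in KO NPC 3 and at 3.25 to 4.18 CPM in the others. MSTRG.13954, which lies 3724 bases past *Olig2*, a transcription factor of the oligodendrocyte lineage, was at 3.42, 10.5 and 7.11 CPM in the KO NPCs and at 3.42, 13.6 and 22.7 CPM in the WT NPCs. MSTRG.13956, 8755 bases past *Olig2*, was at 0.0924, 1.08 and 0.610 CPM in the KO NPCs and at 0.223, 1.58 and 3.08 CPM in the WT NPCs. Both loci near *Olig2* were lowest in the libraries numbered 1 and highest in WT NPC 3.

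At each of the 10 unnamed loci with the highest mean, the KO and WT values overlapped. MSTRG.20475 (chr3:5825226-5860844, plus strand, 519 bases of exon, 19988 bases from the nearest named locus) had the highest mean, with 420, 196 and 226 CPM in the KO NPCs and 490, 265 and 281 CPM in the WT NPCs. MSTRG.7730, 51 bases past the angiogenesis inhibitor gene *Vash1*, was at 58.2 CPM in KO NPC 3 and at 220 to 283 CPM in the others. MSTRG.8965, 561 bases from *S1pr3*, a sphingosine phosphate receptor gene, was likewise at 15.7 CPM in KO NPC 3 and at 148 to 191 CPM in the others, and MSTRG.15009, in the *Trim39* locus, at 51.3 and 126 to 162 CPM. KO NPC 3 was low at these 3 loci and high at 3 others that lie inside long genes. MSTRG.11498 in *Pcdh9* was at 499 CPM there and at 96.1 to 141 CPM in the others, MSTRG.30252 in *Nav2* at 496 and 61.4 to 88.8 CPM, and MSTRG.31196 in *Sox6* at 643 and 20.3 to 54.6 CPM.

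The remaining 3 of the 10 highest did not follow genotype. MSTRG.6324 (chr11:108930578-109012146, minus strand) had 512 bases of exon in a span of 81569 bases, and was at 340, 58.7 and 18.3 CPM in KO NPC 1, 2 and 3 and at 568, 56.8 and 28.3 CPM in WT NPC 1, 2 and 3. MSTRG.13751 (chr16:57356249-57442089, minus strand, in the *Cmss1* locus) was at 300, 52.8 and 19.7 CPM and at 481, 51.8 and 28.1 CPM in the same order. Both were high in the libraries numbered 1 of either genotype. This was so for 27 unnamed loci, at which KO NPC 1 and WT NPC 1 both exceeded 2 times every other library, and in 27 of the 27 WT NPC 1 was above KO NPC 1, by a median of 1.61 times. KO NPC 3 was the lowest library at 25 of the 27. Summed, the 27 loci were at 1914, 340 and 134 CPM in the KO NPCs and at 3121, 323 and 227 CPM in the WT NPCs. They were short, with a median exon length of 398 bases, and 10 of them lay over 5 kb from any named locus. MSTRG.32060, a locus of 358 bases on chromosome 8 that was named after its values were seen, was at 237, 34.3 and 16.9 CPM in the KO NPCs and at 331, 29.6 and 21.6 CPM in the WT NPCs.

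**Figure D3:**
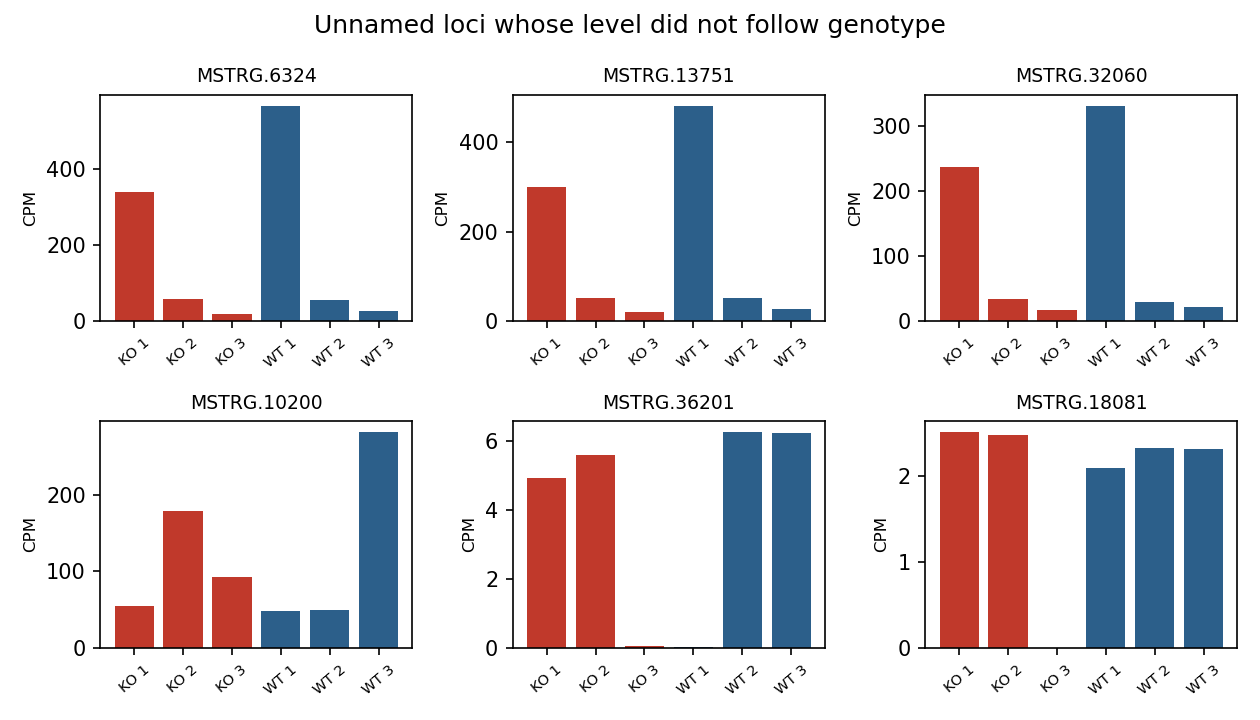
CPM (y axes, linear, with a scale of its own in each panel) of 6 unnamed loci in the 3 KO libraries (red) and the 3 WT libraries (blue). The upper 3 panels show loci that were high in KO NPC 1 and WT NPC 1, and the lower 3 show loci that were high or near 0 in single libraries of either genotype.

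The third of them, MSTRG.10200 (chr14:19415683-19419704, plus strand), was at 54.0, 179 and 92.7 CPM in the KO NPCs and at 47.7, 49.6 and 282 CPM in the WT NPCs. Other loci were near 0 in single libraries. MSTRG.36201 (chrX:38181661-38181869, plus strand, 35 bases past the pseudogene *Zfp36l1-ps*) was at 4.93 and 5.61 CPM in KO NPC 1 and 2 and at 6.27 and 6.24 CPM in WT NPC 2 and 3, and at 0.0359 CPM in KO NPC 3 and 0.0149 CPM in WT NPC 1. MSTRG.18081 (chr2:24992660-24993340, minus strand, antisense to the phospholipase gene *Pnpla7*), named after its values were seen, was at 2.10 to 2.52 CPM in 5 libraries and had a count of 0 in KO NPC 3, which allows up to 0.0538 CPM (3 counts, counting error only). In all, 19 unnamed loci reached 2 CPM in their highest library and stayed under 0.05 CPM in their lowest. At the other end, 184 of the 2411 loci differed less than 1.5 times between the highest and the lowest library, 63 of them past the 3′ end of a named locus.

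The comparison of KO with WT NPCs addressed whether loss of *Armc5* changed these RNAs. By edgeR's quasi-likelihood test over the 23863 loci that passed a filter on low counts, among them all 2411 unnamed loci, 0 unnamed loci and 0 loci in all (0%) had an adjusted p under 0.05, and the smallest adjusted p of an unnamed locus was 0.980 in this edgeR test. The targeted gene was not called either: for *Armc5* log2 KO/WT was -4.69 ± 0.39 (SE), with adjusted p = 0.150 (edgeR). At an unadjusted p under 0.05 there were 32 unnamed loci higher in the KO NPCs (1.33%, beside 1.11% of all loci tested) and 7 lower (0.290%, beside 0.645%). The 3 KO values lay above the 3 WT values at 85 unnamed loci (3.53%, beside 3.34% of all) and below them at 35 (1.45%, beside 2.66%).

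The direction over all unnamed loci was set by KO NPC 3. In log2 KO/WT, 1684 of the 2411 were positive and 727 negative, and the median was 0.27, beside 0.01 over all loci tested. Without KO NPC 3 the median was -0.06, with 1014 above 0 and 1397 below 0. In the loci on the strand of a named locus the median was 0.64 (-0.09 without KO NPC 3), in the antisense loci 0.11 (-0.02), and in those past a 3′ end 0.02 (-0.02). Scaling the libraries by *Rn7sk*, an RNA made by RNA polymerase III, moved the median of all loci to -0.22 and that of the unnamed loci to 0.06, so that in both scales the unnamed loci stood above the rest by a similar amount.

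The share of all counts at the unnamed loci was 2.35% ± 1.73 (SD, n = 3) in the KO NPCs and 1.41% ± 0.176 (SD, n = 3) in the WT NPCs, a difference that did not exceed the spread between libraries (p = 0.7, exact permutation test, two-sided; 3 against 3 cannot give less than 0.1). Without KO NPC 3 the difference turned from 0.935 to -0.0606 percentage points. No class passed this exact test, with p adjusted over the 8 shares of 0.914 for 6 classes and of 1 for the loci far from any gene. The antisense loci took up 0.298% ± 0.0505 (SD, n = 3) of the counts in the KO NPCs and 0.283% ± 0.0404 (SD, n = 3) in the WT NPCs, and the loci past 3′ ends 0.243% ± 0.0424 and 0.222% ± 0.00564 (SD, n = 3 in each group).

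Less conservative tests called a few unnamed loci, most of them higher in the KO NPCs. The likelihood ratio test of edgeR called 5 unnamed loci higher and 0 lower (0.207%, beside 0.0712% of all loci tested called higher and 0.0503% called lower), DESeq2 called 5 (0.207%, beside 0.193% of all), 4 higher and 1 lower, and with the replicate number as a block the likelihood ratio test called 6, 5 higher and 1 lower (beside 0.18% of all). The quasi-likelihood test with this block called 0. The 5 loci called higher by the likelihood ratio test lay at 3 places in the genome. The nearest named genes upstream on their strand were *Endog*, *Shf* and *Scarna2*, 1.19 to 12.99 kb away. Such a gene was taken at any distance, so a place past a 3′ end is not particular to the 5 loci. For MSTRG.17147, described below, the same lookup gave *Mrpl16*, 41.0 kb away. At 4 of the 5, all but MSTRG.19419, every WT library was under 1 CPM, so that they met the level rule only through the KO libraries. The genes upstream were looked up after the values of the loci were seen, and MSTRG.19418 was named because it was called.

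*Endog* encodes a mitochondrial nuclease. MSTRG.18257 (chr2:30175261-30183073, plus strand, 6803 bases of exon) starts 1192 bases past the end of *Endog* and is antisense to *Spout1*, which encodes a putative methyltransferase. It was at 3.71, 3.84 and 14.8 CPM in KO NPC 1, 2 and 3 and at 0.164, 0.551 and 0.391 CPM in WT NPC 1, 2 and 3. The lowest KO library was thus well above the highest WT library, and KO NPC 3 was the highest. This was 4.21 ± 0.76 (SE) as log2 KO/WT, and 3.36 without KO NPC 3, with an adjusted p of 0.000953 by the likelihood ratio test of edgeR and of 3.95e-06 by DESeq2. *Endog* itself was at 5.94, 5.10 and 4.09 CPM in the KO NPCs and at 5.17, 4.54 and 5.21 CPM in the WT NPCs. The sources used here do not give whether strand was used in counting, and without it reads of an antisense pair could not be told apart. *Spout1* was at 22.3 to 27.0 CPM in the WT NPCs, where MSTRG.18257 was near 0, and at 21.3, 20.8 and 11.1 CPM in the KO NPCs.

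*Shf* encodes an adaptor protein of receptor tyrosine kinase signalling. Past its 3′ end lie MSTRG.19419 (chr2:122337920-122344940, minus strand, 7021 bases) after a gap of 3952 bases and MSTRG.19418 (chr2:122332437-122335904, minus strand, 3468 bases) after 12988 bases, both antisense to the oxidase gene *Duox1*, which was at most 0.0595 CPM in any library. MSTRG.19419 was at 5.20, 4.57 and 24.1 CPM in the KO NPCs and at 0.759, 1.05 and 0.854 CPM in the WT NPCs. MSTRG.19418 was at 1.18, 1.36 and 8.33 CPM in the KO NPCs and at 0.0447, 0.148 and 0.203 CPM in the WT NPCs. At both, every KO library was above every WT library. For MSTRG.19419 log2 KO/WT was 3.54 ± 0.70 (SE), and 2.46 without KO NPC 3, with an adjusted p of 0.00699 by the likelihood ratio test of edgeR, and on the *Rn7sk* scale this call was lost (3.34, adjusted p = 0.0549). For MSTRG.19418 it was 4.63 ± 1.01 (SE), and 3.26 without KO NPC 3, with an adjusted p of 0.0126 by that test of edgeR. *Shf* was at 15.1, 11.4 and 12.8 CPM in the KO NPCs and at 16.9, 11.6 and 12.3 CPM in the WT NPCs. MSTRG.19417, farther along the same strand and below the level rule, was at 0.508, 0.651 and 4.34 CPM in the KO NPCs and at 0, 0.134 and 0 CPM in the WT NPCs, where a count of 0 allows up to 0.0447 CPM in WT NPC 1 and 0.0434 CPM in WT NPC 3.

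*Scarna2* is a small RNA of Cajal bodies, which guides the modification of spliceosomal RNAs. Past it lie MSTRG.21931 (chr3:108547303-108552481, minus strand, 5179 bases) after 1857 bases and MSTRG.21930 (chr3:108537258-108542863, minus strand, 5606 bases) after 11475 bases. MSTRG.21931 was at 3.17, 3.29 and 19.3 CPM in the KO NPCs and at 0.491, 0.336 and 0.318 CPM in the WT NPCs. MSTRG.21930 was at 1.85, 2.22 and 21.4 CPM in the KO NPCs and at 0.0893, 0.107 and 0.275 CPM in the WT NPCs. The groups did not overlap at either locus. For MSTRG.21931 log2 KO/WT was 4.34 ± 0.83 (SE), and 3.08 without KO NPC 3, with an adjusted p of 0.00214 by the likelihood ratio test of edgeR. For MSTRG.21930 it was 5.599 ± 1.21 (SE), and 3.70 without KO NPC 3, with an adjusted p of 0.00499 by that test of edgeR, while DESeq2 gave it no adjusted p. MSTRG.21930 is antisense to *1700013F07Rik*, which had a count of 0 in all 6 libraries. *Scarna2* was at 61.6, 70.8 and 84.7 CPM in the KO NPCs and at 65.6, 79.4 and 61.2 CPM in the WT NPCs.

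**Figure D4:**
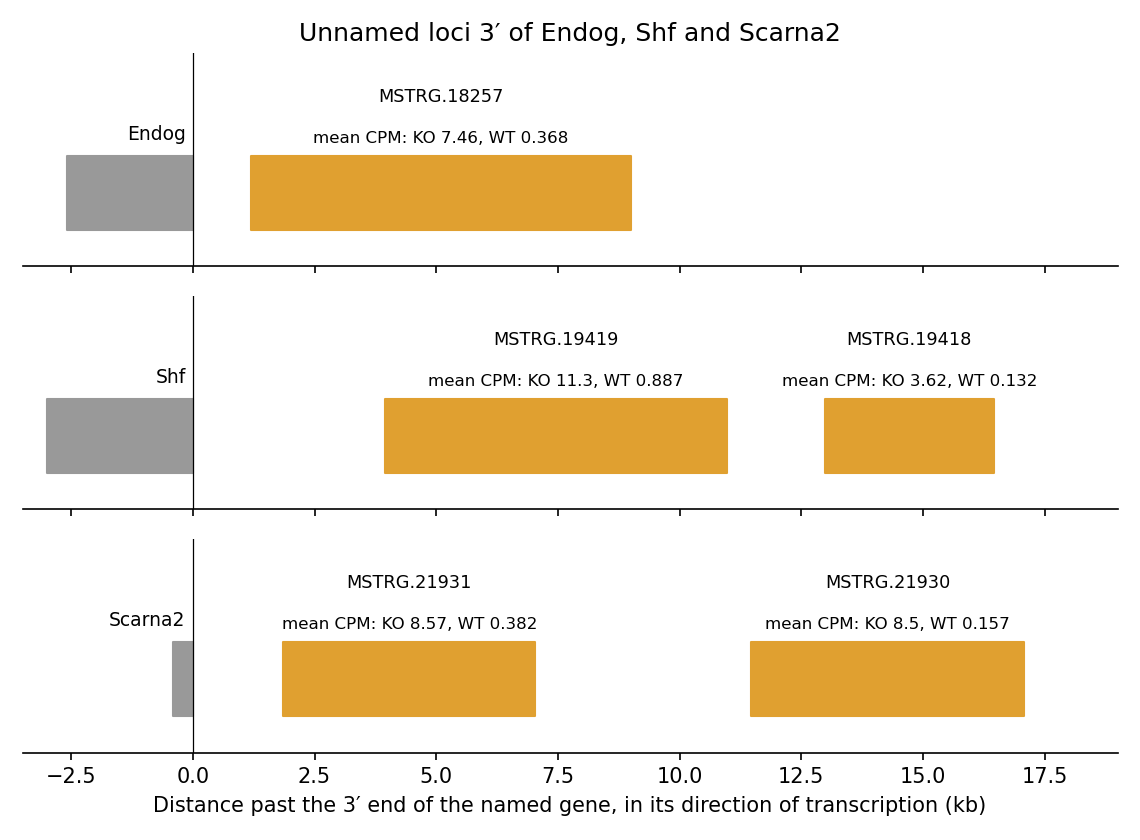
Position of the 5 unnamed loci (orange) past the 3′ ends of *Endog*, *Shf* and *Scarna2* (grey, at most 3 kb shown of each), as distance in kb along the direction of transcription (x axis), with the mean CPM of the 3 KO and the 3 WT libraries printed at each locus. The loci start 1.19 to 12.99 kb past the genes and end within 17.1 kb, and each has the higher mean in the KO NPCs.

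Farther along the strand of *Scarna2* the same order was seen at loci outside the 2411, which were picked after their values were seen. The unnamed MSTRG.21927 was at 0.601, 0.292 and 6.25 CPM in the KO NPCs and at 0, 0.0403 and 0.0290 CPM in the WT NPCs, and the named *Gm37859* at 0.358, 0.744 and 4.41 CPM in the KO NPCs and at 0.0447, 0.0806 and 0.130 CPM in the WT NPCs. *5330417C22Rik*, the next gene on this strand, was at 1.20, 1.66 and 7.82 CPM in the KO NPCs and at 0.119, 0.376 and 1.29 CPM in the WT NPCs, where KO NPC 1 and WT NPC 3 overlapped. Of the 5 called loci, only MSTRG.21931 was in the class of 412 past a 3′ end, since the other 4 overlap a gene on the opposite strand. In that class log2 KO/WT was above 0 at 217 loci and below 0 at 195. The KO values were all above the WT values at 11 of the 412 and all below at 7. Over all 23863 loci tested this was so at 796 (3.34%) and 635 (2.66%).

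With the same limit from the level rule, each of the 5 loci was also called when KO NPC 3 was left out. This setting was chosen after seeing the data. Adjusted p lay between 6.47e-09 (MSTRG.21931) and 0.000105 (MSTRG.19418) by the likelihood ratio test of edgeR. By DESeq2 it lay between 8.44e-17 (MSTRG.19419) and 0.000377 (MSTRG.19418). These tests then called 6 and 7 of the 2411 unnamed loci, beside 82 and 102 of all 24492 loci tested. The 5 loci were picked for a call on these same libraries, so the calls without KO NPC 3 are no separate support. Their levels in KO NPC 1 and 2 were close to each other and their levels in KO NPC 3 were 3.86 to 9.67 times as high as in the next library.

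**Figure D5:**
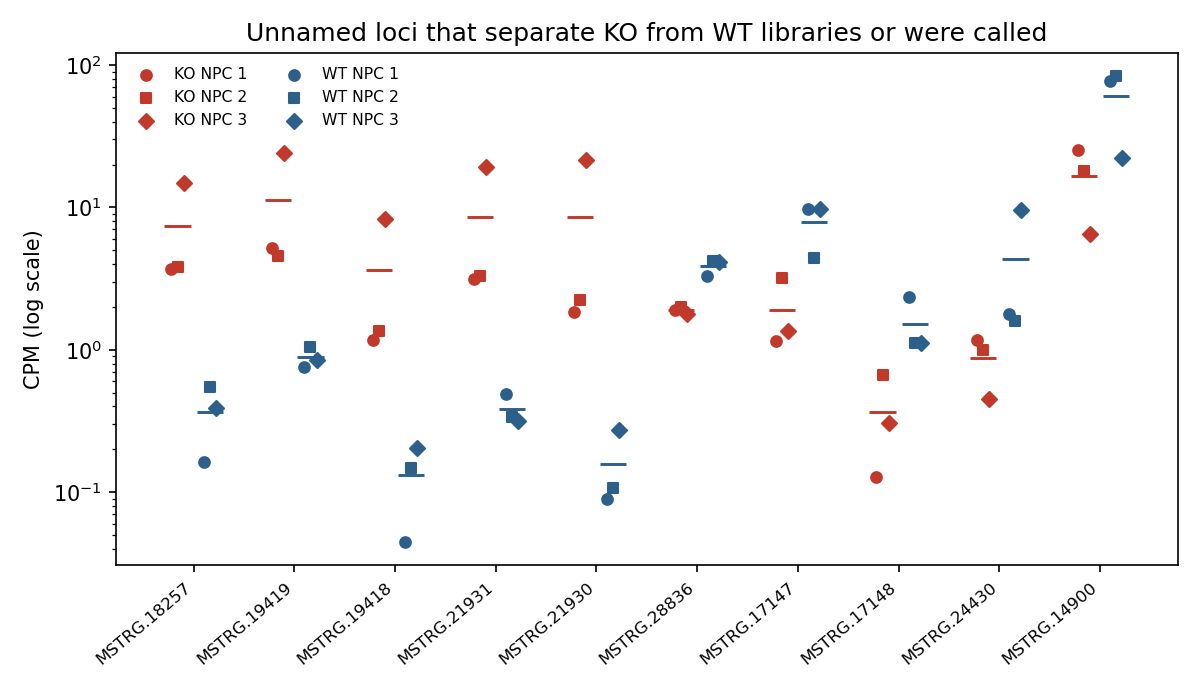
CPM (y axis, log scale) of 10 unnamed loci in the 3 KO libraries (red) and the 3 WT libraries (blue), with the group mean as a line. The 5 loci at the left are higher in all KO libraries, the next 4 are lower in all KO libraries, and at MSTRG.14900 KO NPC 1 (25.1 CPM) lies above WT NPC 3 (22.1 CPM).

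Fewer unnamed loci were lower in the KO NPCs. The 4 with the smallest p among those whose groups did not overlap were MSTRG.28836, MSTRG.17147, MSTRG.17148 and MSTRG.24430. MSTRG.28836 (chr6:128759955-128799046, minus strand, 382 bases of exon), in the locus of the natural killer receptor genes *Klrb1b* and *Klrb1c*, was at 1.91, 1.99 and 1.78 CPM in the KO NPCs and at 3.28, 4.22 and 4.14 CPM in the WT NPCs. It was even within both groups, with log2 KO/WT of -1.09 ± 0.29 (SE), and was called by DESeq2 (adjusted p = 0.0156) but not by either test of edgeR. The *Klrb1b* locus was at 2.01, 1.77 and 0.197 CPM in the KO NPCs and at 5.37, 1.44 and 3.10 CPM in the WT NPCs.

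The next 2 lie at *Stx3*, which encodes a syntaxin of membrane fusion. MSTRG.17147 (chr19:11818194-11821264, plus strand) is antisense to the *Stx3* locus, and MSTRG.17148 (chr19:11821629-11822228, plus strand) begins 2226 bases outside it in divergent orientation, both within the RefSeq long noncoding RNA gene *Gm41810*. MSTRG.17147 was at 1.16, 3.18 and 1.36 CPM in the KO NPCs and at 9.71, 4.42 and 9.69 CPM in the WT NPCs. MSTRG.17148 was at 0.127, 0.664 and 0.305 CPM in the KO NPCs and at 2.34, 1.11 and 1.11 CPM in the WT NPCs. Within each genotype the library numbered 2 stood apart at MSTRG.17147, higher in KO and lower in WT. Log2 KO/WT was -2.10 ± 0.56 (SE) for MSTRG.17147 and -2.12 ± 0.71 (SE) for MSTRG.17148, and neither was called by any test. The limit on strand given for MSTRG.18257 holds for this antisense pair too. *Stx3* had a similar order, at 2.22, 5.47 and 3.50 CPM in the KO NPCs and at 11.1, 5.49 and 11.5 CPM in the WT NPCs, with log2 KO/WT of -1.38 ± 0.46 (SE), which was not called (adjusted p = 0.980, edgeR).

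MSTRG.24430 (chr4:147218828-147227457, plus strand, in *Gm26624*) was at 1.18, 0.996 and 0.449 CPM in the KO NPCs and at 1.77, 1.60 and 9.66 CPM in the WT NPCs. Log2 KO/WT was -2.30 ± 0.85 (SE), and -0.998 without WT NPC 3, and no test called it. MSTRG.14900 (chr17:34996685-35001292, minus strand), most of which lies in the RefSeq gene *D17H6S56E-5*, was at 25.1, 17.9 and 6.46 CPM in the KO NPCs and at 77.6, 83.4 and 22.1 CPM in the WT NPCs. The groups overlapped, but within each replicate number the KO library was the lower. The likelihood ratio test with the block of edgeR called it (log2 KO/WT of -1.93, adjusted p = 6.49e-05), and it was named for that. It is antisense to the locus of *Lsm2* and *Vars*, which was at 222, 232 and 75.1 CPM in the KO NPCs and at 199, 216 and 237 CPM in the WT NPCs. MSTRG.18989 (chr2:92093456-92168180, plus strand, 401 bases of exon, in the *Phf21a* locus) had a count of 0 in KO NPC 1 and 2, which allows up to 0.0347 and 0.0399 CPM, and was at 3.16 CPM in KO NPC 3 and at 0.789, 1.10 and 3.84 CPM in the WT NPCs. It was called lower only when KO NPC 3 was left out, by the likelihood ratio test (adjusted p = 4.4e-07) and by DESeq2 (adjusted p = 8.33e-06).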

How the data were processed

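RNA-seq was done on rRNA-depleted, strand-specific libraries from 3 *Armc5* KO and 3 WT NPC cultures. The submitters' processing notes name STAR, StringTie, Trimmomatic, Picard and edgeR, without versions, and the build GRCm38; the authors trimmed, aligned and assembled the reads and deposited whole-number counts for each assembled locus. The counter, and whether it used the strand, are not given in the sources used here. The authors also deposited log2 CPM values, as such and set against *Rn7sk*, with group means, which were not used.

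The members and lists were chosen with earlier results of these data known. CPM was taken over the total count of all 59699 loci. Loci were filtered with filterByExpr (minimum count 10, minimum total 15), given TMM factors, and compared between genotypes by the quasi-likelihood test of edgeR 4.0.16 (R 4.3.3) without a block, adjusted by the Benjamini-Hochberg method over 23863 loci at 0.05; the likelihood ratio test and DESeq2 1.42.0 were alternatives, with *Rn7sk* or total-count scaling, no filter, the block, and each library left out. The methods of the study used a paired test on the *Rn7sk* scale. The standard error is the log2 fold change over the root of the test's statistic. Shares of counts were compared by two-sided exact permutation tests. The tests were checked on simulated counts with known changes.

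Library pairs with the same number deviated together from their group means over all loci tested (r = 0.377, 0.147 and 0.116 for numbers 1, 2 and 3). Pairs with different numbers had r between -0.259 and 0.0796. Over the unnamed loci KO NPC 3 and WT NPC 2 had r = 0.126, close to the 0.130 and 0.149 of numbers 2 and 3. The numbers were taken to pair the libraries in the block, though only number 1 stood clearly apart. The labels do not say what a number shares, nor whether libraries came from separate fetuses, so p values measure the spread between these libraries.

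Loci named were the 10 highest by mean CPM, the 3 longest and 3 shortest, 3 on either side of the level rule, up to 10 per direction past the threshold (where fewer than 4 passed, the 4 with the smallest p whose groups did not overlap), those within 10 kb of *Armc5*, those whose nearest named locus holds a listed progenitor gene, and the 4 with the largest ratio of highest to median library. Others were named after their values were seen. Positions were set against GENCODE vM21 and RefSeq GRCm38.p6. No genome sequence was used here, so base composition was given only for RefSeq promoter windows. The sum over the oligodendrocyte marker list is not reported here.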

Additional observations from a re-analysis of the deposited data

How the results depend on the processing

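Counts of calls and shares depended on the test and on KO NPC 3. The number of unnamed loci called was 0 by the quasi-likelihood test under every scaling, filter, block and library left out. It was 5 by DESeq2, 5 by the likelihood ratio test, 6 by the latter with the replicate block (MSTRG.14900 was added), 4 by the likelihood ratio test on the *Rn7sk* scale (MSTRG.19419 was lost), and without KO NPC 3 it was 6 by the likelihood ratio test and 7 by DESeq2. The number at an unadjusted p under 0.05 was 39, beside 419 of all loci tested. It was 125 on the *Rn7sk* scale (517 of all), 230 without the filter (1296 of all 59699), 223 by the likelihood ratio test (971 of all) and 110 by DESeq2 (800 of all). By DESeq2 without KO NPC 3 it was 71 (948 of all), and by the likelihood ratio test on the *Rn7sk* scale 198 (798 of all). With 1 library left out it was between 14 and 307, beside 251 to 1449 of all loci tested. The cause was not tested.

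The difference in the share of counts, KO minus WT in percentage points, ranged with 1 library left out from -0.0606 to 1.504 for all unnamed loci, from -0.0411 to 1.3998 for those on the strand of a named locus, from -0.0105 to 0.0400 for antisense loci, from -0.00306 to 0.0345 past 3′ ends, from -1.61e-05 to 0.00749 for divergent loci, from -0.000309 to 0.00121 for other near loci, from -0.0159 to 0.0293 for remote loci and from -0.00408 to 0.00950 on scaffolds. With both libraries numbered 3 left out it was -0.0860 for all, -0.0603 on the strand of a named locus, -0.0112 antisense, -0.000244 divergent and -0.000772 for other near loci. It also turned for other near loci on TMM-scaled counts (-0.00122) and for remote loci without the 10 highest loci (0.00591). With the replicate block, the share of all unnamed loci gave p = 1 by a sign-flip exact permutation test, whose smallest two-sided p with 3 pairs is 0.25, and with the block the quasi-likelihood test called 0 loci, as without it.

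The number of remote loci was 331 with a distance of 1 kb, 97 with 10 kb and 338 when only named loci that met the level rule were used, and that of other near loci was 34 with 1 kb and 43 with the level rule. The log2 fold changes of the 10 loci compared between KO and WT NPCs kept their sign in the 170 alternatives run. At all of these loci but MSTRG.14900 the KO and WT values did not overlap, so their sign was largely fixed when they were picked. The kept sign is therefore no check of the result. Depth limits levels near 0: a count of 0 allows 0.0347 CPM in KO NPC 1 and 0.0538 CPM in KO NPC 3. Settings that left out KO NPC 3 together with another test, both libraries numbered 3, or the likelihood ratio test on *Rn7sk*-scaled counts were chosen after seeing the data.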
